A study of Mus musculus with 12 samples.

Results

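Cultures of primary brain endothelial cells (BECs) held transcripts of most of a set of 35 mesenchymal and fibroblast-like genes. Many of these transcripts had lower values in cultures that lack the neuropeptide cortistatin. Which cells of the cultures expressed them was not tested. The 35 genes were taken by symbol from the 32419 genes in the deposited tables of values per library, and matrix genes were left out. The choice was made with earlier results of these data known. They comprise 6 transcription factors of the epithelial-to-mesenchymal transition (EMT), 11 patterning transcription factors of mesenchyme, 13 surface, cytoskeletal and secreted markers, and 5 enzymes and binding proteins of retinoic acid. *Cort*+/+ and *Cort*-/- cultures were sequenced after 24 h in 21% oxygen with glucose (NX/NG), or after deprivation and reoxygenation (OGD-R). OGD-R was 4 h without glucose or serum at 1% oxygen, then 20 h back in 21% oxygen with glucose and serum. The 4 groups were therefore *Cort*+/+ NX/NG, *Cort*-/- NX/NG, *Cort*+/+ OGD-R and *Cort*-/- OGD-R. The *Cort*-/- mice lack the cortistatin gene in every cell, on a C57BL/6J background. BECs came from brain microvessels of 8-week-old mice and were enriched by puromycin, and each replicate was a pool of 3 mice. The 10 libraries used, of 12 samples listed, were *Cort*+/+ replicates 1, 2 and 3 in both environments, *Cort*-/- replicates 1 and 2 under NX/NG, and *Cort*-/- replicates 1 and 3 after OGD-R.

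As background, EMT transcription factors bind E-box sequences and repress epithelial genes such as *Cdh1* while mesenchymal genes are raised, and endothelial cells can take a related route in which junctional genes give way to mesenchymal ones. The patterning factors mark mesenchyme of the head, limbs, kidney and heart, and several of them are kept in adult fibroblasts and in the stromal and mural cells around vessels. *Foxd1*, *Aldh1a2* and *Crabp2* are also transcripts of the leptomeninges, the membranes on the brain surface, where retinaldehyde dehydrogenases make retinoic acid. Cultures from brain microvessels can hold pericytes and perivascular fibroblasts beside endothelium, and vimentin is abundant in cultured endothelium itself.

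The 10 libraries each held between 12386048 and 12390428 reads on genes, so the totals behind the deposited values were nearly the same. How these totals relate to the number of reads sequenced is not given in the sources used here. The labelled cell type was checked with 9 endothelial markers (*Cldn5*, *Pecam1*, *Cdh5*, *Tek*, *Kdr*, *Flt1*, *Emcn*, *Erg* and *Tie1*). Their values summed to between 1030 and 1498 RPKM (reads per kilobase of gene, scaled to library size) in every library. The 5 smooth muscle markers considered below, mainly *Acta2* and *Tagln*, summed to between 995 and 1777 RPKM. The endothelial sum therefore does not show how pure the cultures were. In 8 libraries, 7.64% to 15.8% of the reads fell on the ribosomal RNA gene *Rn18s-rs5*. After OGD-R, *Cort*-/- replicate 3 had 0.0951% and *Cort*+/+ replicate 1 had 0.0775%. Some results that use OGD-R libraries are also given without these libraries or within each kind. Leaving out both leaves 1 *Cort*-/- OGD-R library. *Cort* itself had at most 2 reads in any library and 0 in the 4 *Cort*-/- libraries, too few reads to check the genotype.

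All 35 genes were listed in the OGD-R table and 34 in the NX/NG table, which has no row for *Tcf21*, a factor of epicardial and renal mesenchyme. Levels ran over several orders of magnitude. *Vim*, which encodes the intermediate filament vimentin, led with a median over libraries of 913 RPKM, and *S100a4*, a calcium-binding protein also called fibroblast-specific protein, followed with 271 RPKM. The pericyte and stromal surface protein endosialin (*Cd248*) had a median of 38.9 RPKM. A median of at least 10 RPKM was found for 10 genes, one of 1 to 10 RPKM for 13, and one under 1 RPKM for 12. *Vim*, *S100a4* and *Cd248* had the highest RPKM, in that order, in every library, as the plot of levels by library shows.

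**Figure D1:**
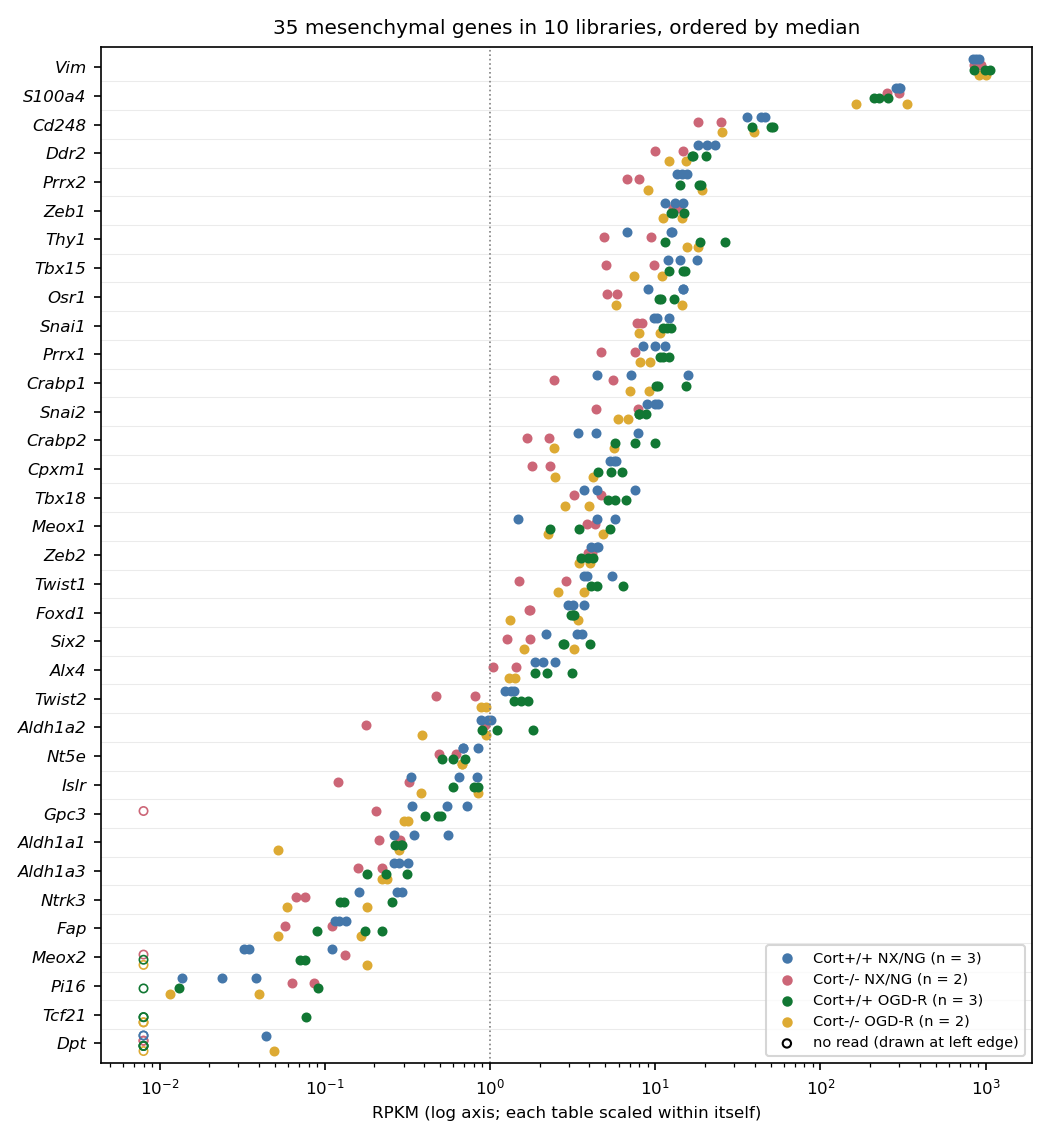
RPKM on a log axis of the 35 genes in each of the 10 libraries, coloured by group and ordered by the median; open circles at the left edge had no read. *Vim* and *S100a4* stand far above the rest, and the *Cort*-/- NX/NG points lie to the left of the *Cort*+/+ NX/NG points for most genes from *Cd248* down to *Ntrk3*.

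The EMT transcription factors were all detected. *Zeb1*, a zinc finger repressor of *Cdh1*, had a median of 13.1 RPKM, and its relative *Zeb2* had 4.08 RPKM. *Snai1* and *Snai2* (Snail and Slug) stood at 10.5 and 7.98 RPKM, and the basic helix-loop-helix factors *Twist1* and *Twist2* at 3.79 and 1.28 RPKM. *Zeb1* and *Zeb2* varied least, by 1.34-fold and 1.31-fold between the lowest and the highest library, against 4.25-fold for *Twist1* and 3.61-fold for *Twist2*.

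Among the patterning factors, the paired-related homeobox gene *Prrx2* had the highest median, 14.3 RPKM. *Tbx15*, a T-box factor of skeletal and adipose mesenchyme, had 12.1 RPKM, the zinc finger factor *Osr1* 10.7 RPKM and *Prrx1* 9.64 RPKM. *Tbx18*, which marks pericytes and vascular smooth muscle, had 4.57 RPKM, and the somite factor *Meox1* 4.10 RPKM. *Foxd1*, *Six2* and *Alx4*, factors of renal stroma, nephron progenitors and limb mesenchyme, stood between 1.86 and 3.13 RPKM. *Meox2* and *Tcf21* never had more than 5 and 2 reads.

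Of the surface and secreted markers, the collagen receptor kinase *Ddr2* had a median of 16.8 RPKM, the membrane glycoprotein *Thy1* 12.6 RPKM, and *Cpxm1*, a secreted member of the carboxypeptidase family, 4.94 RPKM. The ectonucleotidase *Nt5e* (CD73) and the leucine-rich protein *Islr* had 0.678 and 0.624 RPKM. *Gpc3*, a glypican of the cell surface, and *Ntrk3*, the receptor of neurotrophin-3, had 0.372 and 0.146 RPKM. *Pi16*, *Dpt* and *Fap*, also fibroblast markers, had at most 8, 1 and 15 reads in a library. In the retinoic acid group, the cellular binding proteins *Crabp1* and *Crabp2* had 8.18 and 4.99 RPKM, while the synthetic enzymes *Aldh1a2*, *Aldh1a1* and *Aldh1a3* had 0.940, 0.284 and 0.236 RPKM.

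Exons of 8 of the 35 genes overlap exons of another gene in GENCODE vM21. *Twist2*, *Zeb1*, *Tbx18*, *Ddr2* and *Pi16* have partners on the opposite strand, *S100a4* and *Islr* on the same strand, and *Zeb2* on both. The labels name a kit that keeps the strand, but whether the counting used it is not given in the sources used here, so values of these 8 genes may include reads of their partners. None of the 35 lies on chromosome 4, the chromosome of *Cort*.

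Promoters are shown for 3 of the 4 genes with the clearest genotype difference, *Cpxm1*, *Prrx2* and *Foxd1*, and for *Snai1*, one of the EMT factors that bind E-boxes. Each sequence runs from 250 bases before to 50 bases after the RefSeq start on GRCm38.p6, on the strand of the gene, and capitals mark an E-box of the form CAGGTG or its reverse complement CACCTG. They lie at chr2:130397580-130397879 on the minus strand (*Cpxm1*) and, on the plus strand, at chr2:30845117-30845416 (*Prrx2*), chr13:98353995-98354294 (*Foxd1*) and chr2:167537945-167538244 (*Snai1*). In GENCODE vM21 *Prrx2* starts earlier, at base 30834972, so its window lies inside the gene as annotated there.
Cpxm1: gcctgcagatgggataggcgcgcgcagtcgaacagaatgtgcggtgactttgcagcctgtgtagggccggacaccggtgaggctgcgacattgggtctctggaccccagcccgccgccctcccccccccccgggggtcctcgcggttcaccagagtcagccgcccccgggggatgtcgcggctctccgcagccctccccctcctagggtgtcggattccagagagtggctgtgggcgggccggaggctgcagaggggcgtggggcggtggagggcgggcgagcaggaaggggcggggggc
Prrx2: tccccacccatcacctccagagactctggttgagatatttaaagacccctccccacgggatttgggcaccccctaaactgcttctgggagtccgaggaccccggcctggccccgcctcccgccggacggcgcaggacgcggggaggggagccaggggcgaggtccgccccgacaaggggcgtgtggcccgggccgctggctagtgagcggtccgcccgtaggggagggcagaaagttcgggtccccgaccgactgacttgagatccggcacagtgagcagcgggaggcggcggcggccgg
Foxd1: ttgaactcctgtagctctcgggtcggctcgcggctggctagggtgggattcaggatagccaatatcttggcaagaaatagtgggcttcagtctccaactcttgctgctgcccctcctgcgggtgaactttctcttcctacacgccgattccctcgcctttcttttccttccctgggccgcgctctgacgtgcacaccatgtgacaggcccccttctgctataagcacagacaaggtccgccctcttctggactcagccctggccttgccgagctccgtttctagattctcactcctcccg
Snai1: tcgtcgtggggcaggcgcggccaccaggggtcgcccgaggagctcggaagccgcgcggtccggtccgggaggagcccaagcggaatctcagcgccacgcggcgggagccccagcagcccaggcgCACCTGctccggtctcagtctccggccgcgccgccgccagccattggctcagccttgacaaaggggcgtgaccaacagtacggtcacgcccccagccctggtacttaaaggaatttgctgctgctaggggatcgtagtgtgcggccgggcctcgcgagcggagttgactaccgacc
The *Snai1* promoter held 1 E-box of this form, whose first base lies 126 bases before the start, and the other 3 promoters held none. Other forms of E-box were not searched. A promoter entry was matched for 23 of the 35 genes, and 4 of these 23 held the motif (*Snai1*, *Dpt*, *Aldh1a1* and *Aldh1a2*), or 17.4%, against 22.6% of all 27025 genes with an entry. The GC content was 72.7% for *Cpxm1*, 70.3% for *Prrx2*, 57.7% for *Foxd1* and 70.0% for *Snai1*, beside a median of 52.8% over all entries. *Thy1*, *Snai2*, *Tbx15*, *Aldh1a3*, *Osr1*, *Alx4*, *Cd248*, *Crabp2*, *Meox1*, *Zeb1*, *Fap* and *Ntrk3* had no entry.

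Under NX/NG, a part of the mesenchymal transcripts had lower values in *Cort*-/- than in *Cort*+/+ BECs, with some in each of the 4 roles. The mean RPKM was lower in *Cort*-/- BECs for 29 of the 34 genes listed and higher for *Zeb1*, *Vim*, *Meox1*, *Meox2* and *Pi16*. Limma on log2(RPKM + 0.1) gave an unadjusted p under 0.05 for 17 of the 34, all lower, where 8.39% of the 29965 genes tested had such a p and 4.82% were lower. The median log2 fold change was -0.74 over the 34 genes and -0.01 over all genes tested. Because the set was chosen with earlier results known, its shares beside those of all genes, here and below, are a description and not a test. None of the 17 passed a false discovery rate (FDR) of 0.05, nor did any of the 29965 genes by limma, of which 2513 had an unadjusted p under 0.05. Limma-voom on the reads recovered from the RPKM called 124 genes at that FDR, 0.414% of those tested, among them 4 of the set, *Cpxm1*, *Prrx2*, *Cd248* and *Foxd1*, all lower, as were 0.35% of the genes tested. The 17 became 11 without *Cort*+/+ NX/NG replicate 1, a count for which the share over all genes is not given here.

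Of the 23 genes of the set that averaged 1 RPKM or more under NX/NG, 15 were lower with an unadjusted limma p under 0.05, against 7.83% of all genes at that level. Both *Cort*-/- libraries lay below all 3 *Cort*+/+ libraries for 15 of the 23, against 16.6% of all such genes. Both lay above them for 0 of the 23, against 16.4%. In bulk RNA, fewer cells of a type and less RNA per cell cannot be told apart.

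*Cpxm1* had the largest fold change among the 4 genes called with limma-voom. It stood at 1.80 and 2.30 RPKM in the *Cort*-/- replicates and at 5.80, 5.35 and 5.63 RPKM in the *Cort*+/+ replicates under NX/NG. The groups lay well apart, and the *Cort*-/- mean was 36.6% of the *Cort*+/+ mean. The log2 fold change was -1.42 (SE 0.13, limma FDR = 0.0803, limma-voom FDR = 0.0116).

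*Prrx2*, a homeobox factor of craniofacial and limb mesenchyme, stood at 8.01 and 6.74 RPKM in *Cort*-/- and at 14.6, 15.5 and 13.6 RPKM in *Cort*+/+ BECs. *Foxd1* stood at 1.74 and 1.72 RPKM against 3.72, 3.20 and 2.96 RPKM. *Cd248* stood at 25.2 and 18.2 RPKM against 46.4, 43.5 and 36.2 RPKM. For each of these 3 genes both *Cort*-/- values lay below every *Cort*+/+ value, and the *Cort*-/- mean lay between 50.7% and 52.6% of the *Cort*+/+ mean. The log2 fold change of *Prrx2* was -0.97 (SE 0.10, limma FDR = 0.108, limma-voom FDR = 0.0134). For *Foxd1* it was -0.88 (SE 0.13, limma FDR = 0.204, limma-voom FDR = 0.0397). For *Cd248* it was -0.96 (SE 0.18, limma FDR = 0.269, limma-voom FDR = 0.0228). The plot of 8 genes by group shows these values.

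**Figure D2:**
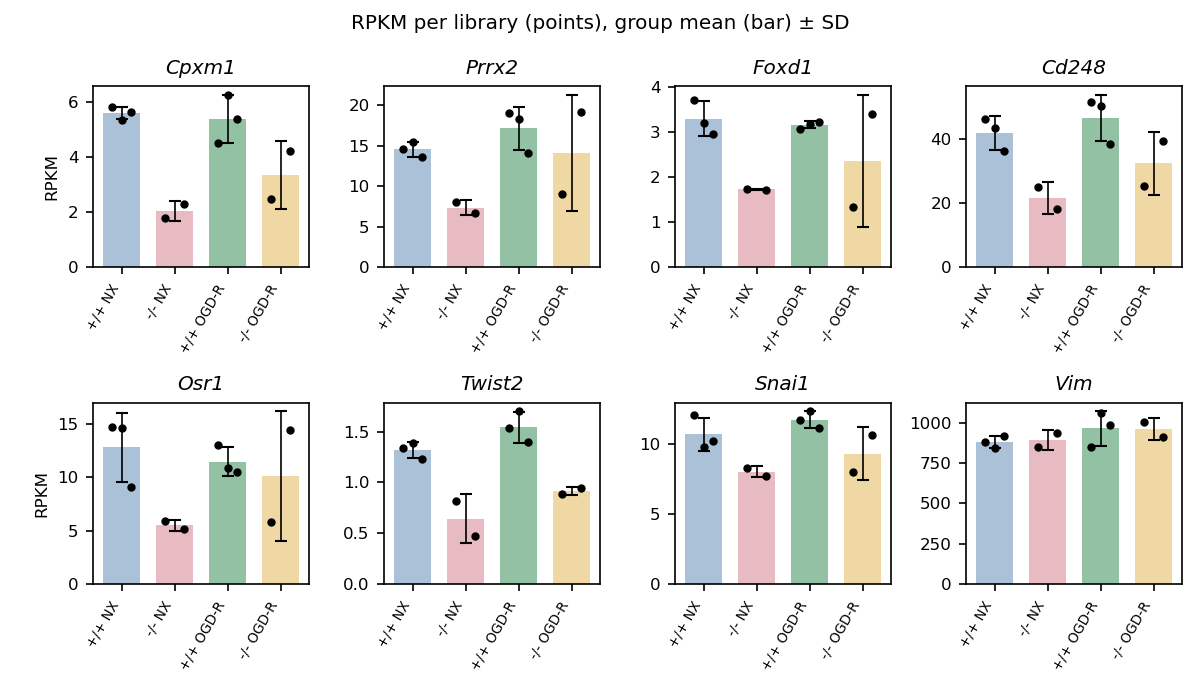
RPKM of 8 genes in the 4 groups, with axes that start at 0; points are libraries, bars are group means and error bars are SD (n = 3 for *Cort*+/+, n = 2 for *Cort*-/-). Under NX/NG, *Cpxm1* averages 5.60 RPKM in *Cort*+/+ against 2.05 RPKM in *Cort*-/- BECs, while *Vim* lies between 841 and 1058 RPKM in every library, and the 2 *Cort*-/- OGD-R points of *Prrx2*, *Foxd1* and *Osr1* are far apart.

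Among the EMT factors, 4 of 6 were lower in *Cort*-/- BECs under NX/NG at an unadjusted p under 0.05. *Snai1* stood at 8.34 and 7.77 RPKM against 12.1, 9.81 and 10.3 RPKM in *Cort*+/+ BECs. *Twist1* stood at 2.88 and 1.498 RPKM against 5.51, 3.69 and 3.89 RPKM. *Twist2* stood at 0.816 and 0.471 RPKM against 1.34, 1.39 and 1.23 RPKM. None of these genes had overlapping groups, nor had *Snai2*, whose *Cort*-/- mean was 62.9% of the *Cort*+/+ mean. The log2 fold changes were -0.40 for *Snai1* (SE 0.11, limma FDR = 0.422), -0.72 for *Snai2* (SE 0.25, FDR = 0.550), -1.01 for *Twist1* (SE 0.32, FDR = 0.518) and -0.97 for *Twist2* (SE 0.27, FDR = 0.439). The ZEB factors overlapped between the genotypes. *Zeb1* stood at 12.8 and 13.9 RPKM against 13.3, 11.5 and 14.7 RPKM, and *Zeb2* at 4.13 and 3.89 RPKM against 4.45, 4.51 and 4.11 RPKM. Their log2 fold changes were 0.03 (SE 0.12) and -0.11 (SE 0.08).

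Of the 10 patterning factors listed under NX/NG, 7 were lower at that p. Beside *Prrx2* and *Foxd1* these were *Osr1*, *Tbx15*, *Six2*, *Alx4* and *Prrx1*. *Osr1* stood at 5.88 and 5.14 RPKM in *Cort*-/- and at 14.7, 14.7 and 9.06 RPKM in *Cort*+/+ BECs, with a log2 fold change of -1.17 (SE 0.24, limma FDR = 0.311). *Tbx15* stood at 9.79 and 5.02 RPKM against 17.8, 14.0 and 12.0 RPKM, with a log2 fold change of -1.03 (SE 0.32, FDR = 0.505). In both genes the *Cort*-/- values lay below all *Cort*+/+ values. The log2 fold changes of *Six2*, *Alx4* and *Prrx1* were -0.95 (SE 0.28, FDR = 0.468), -0.76 (SE 0.21, FDR = 0.437) and -0.72 (SE 0.24, FDR = 0.526). *Tbx18* and *Meox1* overlapped between the genotypes, and *Meox2* had at most 4 reads in an NX/NG library.

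Of the 13 surface, cytoskeletal and secreted markers, 5 were lower at that p: *Cpxm1*, *Cd248*, *Ddr2*, *Gpc3* and *Ntrk3*. *Ddr2* stood at 14.6 and 9.97 RPKM in *Cort*-/- and at 23.1, 20.6 and 18.1 RPKM in *Cort*+/+ BECs, which did not overlap, with a log2 fold change of -0.76 (SE 0.19, limma FDR = 0.408). *Gpc3* had 0 and 7 reads against 24, 12 and 17 reads, and *Ntrk3* had 25 and 29 reads against 101, 117 and 56 reads. At such levels the fold change depends on the pseudocount, -1.82 for *Gpc3* (SE 0.60, FDR = 0.526) and -0.98 for *Ntrk3* (SE 0.33, FDR = 0.531). The most abundant transcripts of the set overlapped between the genotypes. *Vim* stood at 848 and 937 RPKM against 877, 841 and 916 RPKM, with a log2 fold change of 0.02 (SE 0.13), and *S100a4* at 253 and 299 RPKM against 285, 299.6 and 303 RPKM, with a log2 fold change of -0.10 (SE 0.10). *Thy1* overlapped between the genotypes, at 4.89 and 9.40 RPKM against 12.5, 6.76 and 12.7 RPKM.

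In the retinoic acid group, 1 of 5 genes was lower at that p. *Crabp2*, which carries retinoic acid to its nuclear receptors, stood at 2.27 and 1.67 RPKM in *Cort*-/- and at 7.84, 4.37 and 3.41 RPKM in *Cort*+/+ BECs. The groups did not overlap, and the log2 fold change was -1.29 (SE 0.38, limma FDR = 0.472). *Crabp1*, at 5.55 and 2.45 RPKM against 15.9, 4.46 and 7.13 RPKM, did overlap. The log2 fold change was below 0 for all 5 genes of the group, with a median of -0.97.

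After OGD-R, 10 genes of the set had lower values in *Cort*-/- BECs at an unadjusted p under 0.05 and none passed an FDR of 0.05 by limma or limma-voom. The mean RPKM was lower in *Cort*-/- BECs for 31 of the 35 genes and higher for *S100a4*, *Nt5e*, *Meox2* and *Dpt*, the last with 1 read in all. The 10 of 35 were all lower, where 3.42% of the 29775 genes tested had such a p and 1.71% were lower. The median log2 fold change was -0.36 over the 35 genes and -0.01 over all genes. Limma called 0 genes at an FDR of 0.05, while 1019 had an unadjusted p under 0.05, and limma-voom called 5 genes, 0.0168% of those tested and none of the set. The 10 became 5 without *Cort*+/+ replicate 1 or without *Cort*+/+ replicate 2, and 6 without *Cort*+/+ replicate 3. For these counts the share over all genes is not given here. Leaving out both libraries low in ribosomal RNA leaves 1 *Cort*-/- library, and each kind of library is described on its own below.

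Of the 24 genes of the set that averaged 1 RPKM or more after OGD-R, 10 were lower at that p, against 2.23% of all such genes. Both *Cort*-/- libraries lay below all 3 *Cort*+/+ libraries for 12 of the 24, against 8.23% of all such genes, and above them for 0, against 7.87%.

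The 10 genes were *Tbx18*, *Prrx1*, *Snai2*, *Twist2*, *Tbx15*, *Alx4*, *Cpxm1*, *Ddr2*, *Twist1* and *Crabp2*. All but *Tbx18* were also among the 17 under NX/NG, so 9 genes were lower in both environments, 52.9% of the 17 and 90% of the 10. None of the 10 kept that p after OGD-R under every alternative processing described below. Over all 27321 genes tested in both, 164 were lower at that p in both, 11.4% of those lower under NX/NG and 32.7% of those lower after OGD-R. Among genes that averaged 1 RPKM or more in both, the shares were 60% and 90% of the set and 13.9% and 49.5% of all genes. The NX/NG and OGD-R comparisons use different libraries, but whether same-numbered libraries share a pool of mice is not known. *Tbx18* stood at 2.85 and 3.98 RPKM in *Cort*-/- and at 6.70, 5.69 and 5.21 RPKM in *Cort*+/+ BECs after OGD-R. The groups did not overlap, and the log2 fold change was -0.77 (SE 0.19, limma FDR = 0.801).

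*Twist2* stood at 0.886 and 0.947 RPKM in *Cort*-/- and at 1.54, 1.70 and 1.40 RPKM in *Cort*+/+ BECs after OGD-R. *Prrx1*, a homeobox factor of fibroblast and limb mesenchyme, stood at 8.12 and 9.30 RPKM against 10.7, 11.1 and 12.1 RPKM. *Alx4* stood at 1.41 and 1.30 RPKM against 3.16, 1.86 and 2.23 RPKM. In all 3 genes the *Cort*-/- replicates lay close together and below the *Cort*+/+ replicates. Their log2 fold changes were -0.69 (SE 0.21), -0.37 (SE 0.11) and -0.76 (SE 0.26), each with a limma FDR of 0.978. The log2 fold changes of the other genes at that p were -0.36 for *Snai2* (SE 0.11), -0.65 for *Twist1* (SE 0.25), -0.62 for *Tbx15* (SE 0.19), -0.70 for *Cpxm1* (SE 0.26), -0.38 for *Ddr2* (SE 0.14) and -1.01 for *Crabp2* (SE 0.40), also with a limma FDR of 0.978. *Vim*, *S100a4*, *Zeb1*, *Zeb2* and *Meox1* overlapped between the genotypes after OGD-R, as they did under NX/NG.

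**Figure D3:**
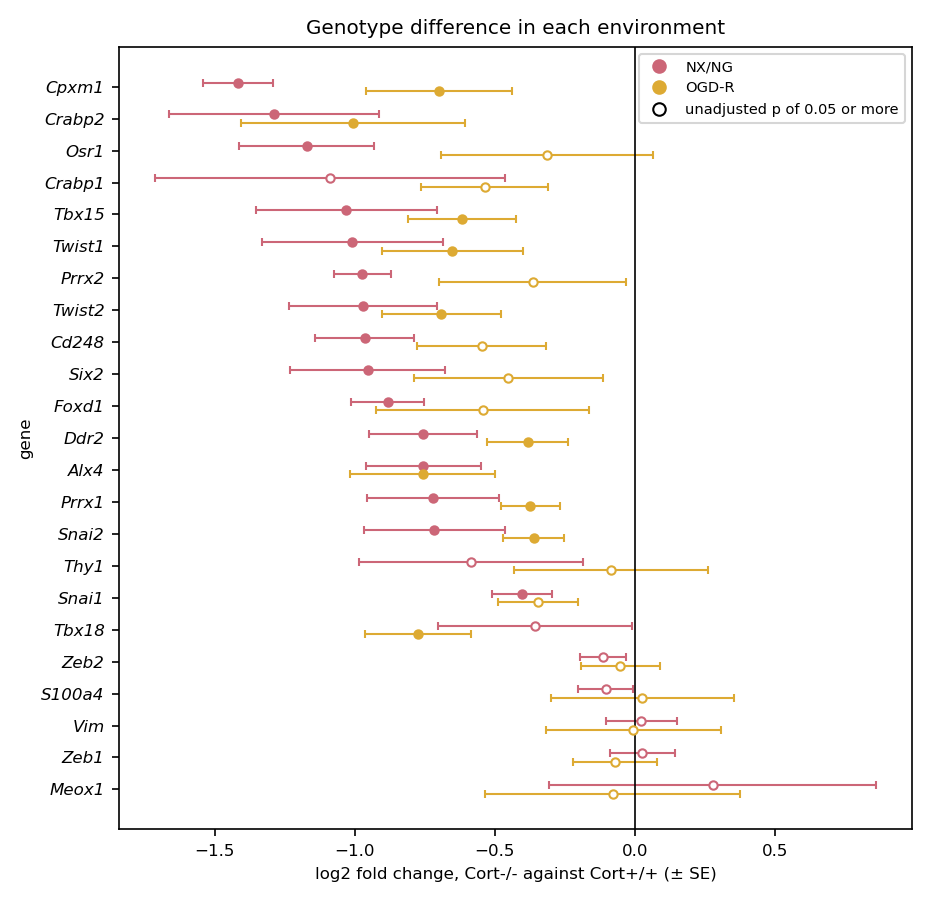
Log2 fold change of *Cort*-/- against *Cort*+/+ BECs on the log2(RPKM + 0.1) scale, with SE bars, under NX/NG (red) and after OGD-R (yellow) for the 23 genes that averaged 1 RPKM or more over the 10 libraries; filled points had an unadjusted limma p under 0.05. *Cpxm1* is the lowest under NX/NG (-1.42), where *Vim*, *Zeb1*, *Zeb2*, *S100a4* and *Meox1* lie closest to 0.

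The *Cort*-/- OGD-R replicates lay far apart for several of these genes. *Osr1* stood at 5.82 RPKM in replicate 1 and 14.4 RPKM in replicate 3, against 13.1, 10.9 and 10.5 RPKM in *Cort*+/+ BECs. *Prrx2* stood at 9.04 and 19.2 RPKM against 19.0, 18.3 and 14.1 RPKM. *Foxd1* stood at 1.33 and 3.40 RPKM against 3.08, 3.18 and 3.22 RPKM. In each of these genes replicate 1 lay below and replicate 3 above the *Cort*+/+ range. On jointly scaled values of the 23 genes that averaged 1 RPKM or more, replicate 1 lay below the *Cort*+/+ OGD-R range for 19 and above it for 0, and replicate 3 lay below it for 14 and above it for 4 (*Prrx2*, *Foxd1*, *Osr1* and *S100a4*). Of all 13789 genes at that level, replicate 1 lay below the range for 28.4% and above it for 26.4%, and replicate 3 for 23.2% and 22.8%. Replicate 3 exceeded replicate 1 in 19 of the 23, with a median ratio of 1.33, while it did so for 50.3% of all genes at that level.

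Replicate 3 is also one of the libraries low in ribosomal RNA, and the part of this in the difference was not tested. Within the pair of such libraries, the *Cort*-/- library lay below the *Cort*+/+ library for 18 of 24 genes of the set, with a median log2 difference of -0.18, against 50.2% of all genes that averaged 1 RPKM or more. Among the other libraries, *Cort*-/- replicate 1 lay below both *Cort*+/+ replicates for 21 of the 24, with a median log2 difference of -0.65, against 37.2% of all such genes.

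The *Cort*-/- NX/NG replicates differed as well, since replicate 1 exceeded replicate 2 in 17 of the 23 genes, with a median ratio of 1.36, against 49.8% of all genes. Relative to the mean of the *Cort*+/+ NX/NG replicates, the median of the set lay at -0.54 on the log2 scale in *Cort*-/- NX/NG replicate 1 and at -1.05 in replicate 2. It lay at -0.77 in *Cort*-/- OGD-R replicate 1 and at -0.16 in replicate 3. The 6 *Cort*+/+ libraries lay between -0.14 and 0.18, so that each *Cort*-/- library had a lower median than each *Cort*+/+ library, the nearest by a small margin.

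**Figure D4:**
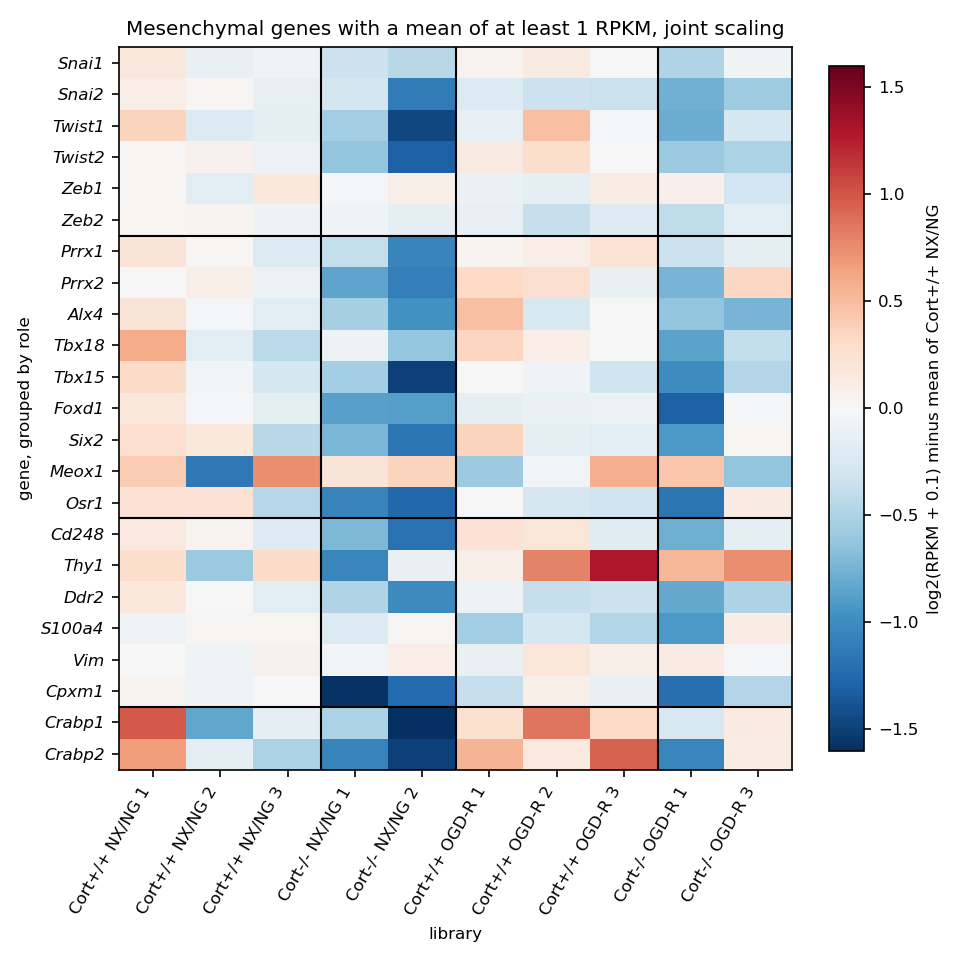
Log2(RPKM + 0.1) of 23 genes in the 10 libraries after joint scaling, minus the mean of the *Cort*+/+ NX/NG libraries, with genes grouped by role (EMT factors, patterning factors, surface and other markers, retinoic acid) and libraries by group. Blue marks lower values: *Cort*-/- NX/NG replicates 1 and 2 and OGD-R replicate 1 are blue for most genes (medians -0.54, -1.05 and -0.77), and OGD-R replicate 3 for fewer (-0.16).

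NX/NG and OGD-R were also compared within each genotype. By limma, the share of the set at an unadjusted p under 0.05 was near that of all genes, and by limma-voom it was above it. For this comparison the tables, which the authors scaled separately, were joined over 27321 genes and scaled together. In *Cort*+/+ BECs, 2 of the 34 genes had an unadjusted limma p under 0.05, against 5.48% of all 27075 genes tested. Both were lower, as were 2.48% of all genes, and neither was among the 9 genes that limma called at an FDR of 0.05 (0.0332%). *S100a4* stood at 292, 307 and 311 jointly scaled RPKM under NX/NG and at 206, 250.2 and 219.8 RPKM after OGD-R. The groups did not overlap, and the log2 fold change was -0.43 (SE 0.11, limma FDR = 0.828). *Snai2* stood at 10.7, 10.1 and 9.11 RPKM under NX/NG and at 8.53, 7.82 and 7.75 RPKM after OGD-R, again without overlap, with a log2 fold change of -0.31 (SE 0.08, FDR = 0.861). Limma-voom gave such a p for 6 of the 34, against 5.57% of all genes. The 2 became 5 without *Cort*+/+ NX/NG replicate 1 or without *Cort*+/+ OGD-R replicate 1, and 4 without *Cort*+/+ NX/NG replicate 3. For these counts the share over all genes is not given here. The 9 calls became 0 without any 1 of the 6 libraries. Of 24 genes of the set that averaged 1 RPKM or more, the OGD-R libraries lay above all NX/NG libraries for 0 and below them for 3, against 7.67% and 5.18% of all such genes.

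In *Cort*-/- BECs, 1 of the 34 genes had such a p in the transition, against 4.08% of 26523 genes, and limma called 0 genes at an FDR of 0.05, while 1082 had an unadjusted p under 0.05. Limma-voom also called 0, and gave an unadjusted p under 0.05 for 7 of the 34, all higher, against 1.9% of all genes. The gene by limma was *Thy1*, which was higher, as were 2.21% of all genes, at 5.03 and 9.68 RPKM under NX/NG and at 15.3 and 17.7 RPKM after OGD-R, with a log2 fold change of 1.22 (SE 0.34, limma FDR = 0.922). In *Cort*+/+ BECs *Thy1* ranged from 6.91 to 13.04 RPKM under NX/NG and from 11.2 to 25.9 RPKM after OGD-R, which overlapped, with a log2 fold change of 0.73 (SE 0.36, FDR = 0.920). Of 22 genes of the set that averaged 1 RPKM or more, both OGD-R libraries lay above both NX/NG libraries for 6 and below them for 1, against 16.1% and 18.1% of all such genes. The median log2 fold change over the 34 genes in *Cort*-/- BECs was 0.24. Leaving out any of these libraries leaves 1 in its group.

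Whether the genotype difference itself differed between the environments was tested as an interaction. None of the 34 genes had an unadjusted limma p under 0.05, against 2.85% of all 27321 genes, and limma called 3 genes at an FDR of 0.05, none of the set (0.011%). With limma-voom, which called 0 genes at that FDR, 2 of the 34 had an unadjusted p under 0.05, *Cpxm1* and *Gpc3*, against 2.71% of all genes. By limma the count of 0 became 1 without *Cort*+/+ OGD-R replicate 2, a count for which the share over all genes is not given here. The smallest limma p was that of *Cpxm1* (0.0519), whose genotype difference was smaller after OGD-R by 0.71 on the log2 scale (SE 0.31, limma FDR = 0.99977). The smaller differences after OGD-R are therefore not shown to differ from those under NX/NG.

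Genes that act with the set were examined through 3 further lists. Of all genes tested by limma, 4.82% were lower and 3.56% higher at an unadjusted p under 0.05 under NX/NG. After OGD-R these shares were 1.71% and 1.72%. Of 14 retinoid pathway genes listed under NX/NG, 3 were lower in *Cort*-/- BECs at an unadjusted limma p under 0.05 and 0 higher, with a median log2 fold change of -0.30. These were *Rxra* and *Rarg*, nuclear receptors of retinoids, with log2 fold changes of -0.26 (SE 0.07) and -0.45 (SE 0.17), and *Fabp5*, another carrier of retinoic acid, with -0.81 (SE 0.27). After OGD-R, 2 of 15 were lower, *Fabp5* with -0.79 (SE 0.19) and *Cyp26b1*, which degrades retinoic acid, with -0.63 (SE 0.18). Of 13 partners and antagonists of EMT factors, 3 were lower and 1 higher under NX/NG. The inhibitors of basic helix-loop-helix factors *Id2*, *Id1* and *Id3* had log2 fold changes of -0.94 (SE 0.17), -0.51 (SE 0.16) and -0.47 (SE 0.17), and *Id2* passed limma-voom (FDR = 0.0492). *Ctbp2*, a corepressor that ZEB factors recruit, was higher with 0.15 (SE 0.05). After OGD-R, 0 of the 13 had such a p. Of 13 relatives and partners of the surface markers, the glypicans *Gpc1* and *Gpc6* were lower under NX/NG, with -0.78 (SE 0.22) and -0.75 (SE 0.20), and *Entpd1*, the ectonucleotidase that acts before CD73, was higher, with 0.46 (SE 0.14). *Entpd1* was also the only one of 14 at that p after OGD-R, with 0.49 (SE 0.13). No gene of the 3 lists passed an FDR of 0.05 by limma in any genotype comparison.

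Some markers of other cells moved beside the set under NX/NG, where 4.82% of all genes were lower and 3.56% higher at an unadjusted limma p under 0.05. The 7 fibroblast markers summed to 86.0 to 123 RPKM in *Cort*-/- and to 196 to 284 RPKM in *Cort*+/+ BECs, nearly all of it from collagens. Of the 7, 4 were lower at an unadjusted limma p under 0.05 (*Col1a1*, *Col1a2*, *Col3a1* and *Mfap5*), with log2 fold changes from -1.41 to -1.04, and *Col1a1* and *Col1a2* passed limma-voom. The fibroblast receptor *Pdgfra* had a mean of 0.596 ± 0.157 RPKM in *Cort*-/- (SD, n = 2) against 0.335 ± 0.027 RPKM in *Cort*+/+ BECs (SD, n = 3). *Lum* lay at 0.0487 ± 0.0221 RPKM against 0.0333 ± 0.00217 RPKM. The 7 pericyte markers summed to 9.45 to 12.1 RPKM in *Cort*-/- and to 19.4 to 24.4 RPKM in *Cort*+/+ BECs, and 3 were lower at that p. *Pdgfrb* had a log2 fold change of -1.001 (SE 0.17) and *Cspg4* of -1.91 (SE 0.29), both called with limma-voom, and *Rgs5* of -0.86 (SE 0.33). *Anpep* and *Vtn* overlapped between the genotypes, with -0.05 (SE 0.33) and -0.14 (SE 0.43). *Kcnj8* and *Abcc9* had at most 3 reads in every library. The median log2 fold change of the 7 was -0.14, so the list did not fall as a whole. The 9 endothelial markers summed to 1326 to 1467 RPKM in *Cort*-/- and to 1030 to 1293 RPKM in *Cort*+/+ BECs, and 2 were higher at that p, *Erg* by 0.51 (SE 0.17) and *Emcn* by 0.36 (SE 0.12). The part of fibroblasts or pericytes among the cultured cells in the difference of the mesenchymal set was not tested.

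The leptomeningeal list holds 8 genes, 3 of which belong to the set. Without those 3 it summed to 7.13 to 7.61 RPKM in *Cort*-/- and to 6.70 to 10.8 RPKM in *Cort*+/+ BECs under NX/NG, which overlapped, with *Foxc2* lower by a log2 fold change of -0.83 (SE 0.25) and *Ptgds* higher by 0.97 (SE 0.29). *Slc22a6* had no row in either table and *Slc6a13* had at most 3 reads. After OGD-R, the fibroblast sums were 202 to 255 RPKM in *Cort*-/- and 235 to 346 RPKM in *Cort*+/+ BECs, and the pericyte sums 16.42 to 20.995 RPKM and 18.42 to 24.42 RPKM, both overlapping. In that environment 3 of 7 fibroblast markers (*Col3a1*, *Mfap5* and *Lum*) and 1 of 7 pericyte markers (*Vtn*) were lower at that p, against 1.71% of all genes. Epithelial markers summed to between 1.43 and 49.97 RPKM, with *Cort*+/+ NX/NG replicate 2 (49.97 RPKM) and *Cort*-/- OGD-R replicate 1 (37.6 RPKM) standing apart. Smooth muscle markers summed to between 995 and 1777 RPKM. By limma, none of the 5 had an unadjusted p under 0.05 between the genotypes in either environment. Limma-voom gave such a p for *Acta2* and *Tagln* under NX/NG, both lower in *Cort*-/- BECs, each with a log2 fold change of -0.22. After OGD-R it gave one for *Acta2* alone, also lower, with -0.29. None of the 5 passed an FDR of 0.05 by limma-voom in either environment. Choroid plexus markers, mainly *Clic6*, summed to 13.6 to 19.7 RPKM, and those of macrophages, astrocytes, neurons and oligodendrocytes to at most 2.06, 0.154, 0.956 and 0.368 RPKM.

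**Figure D5:**
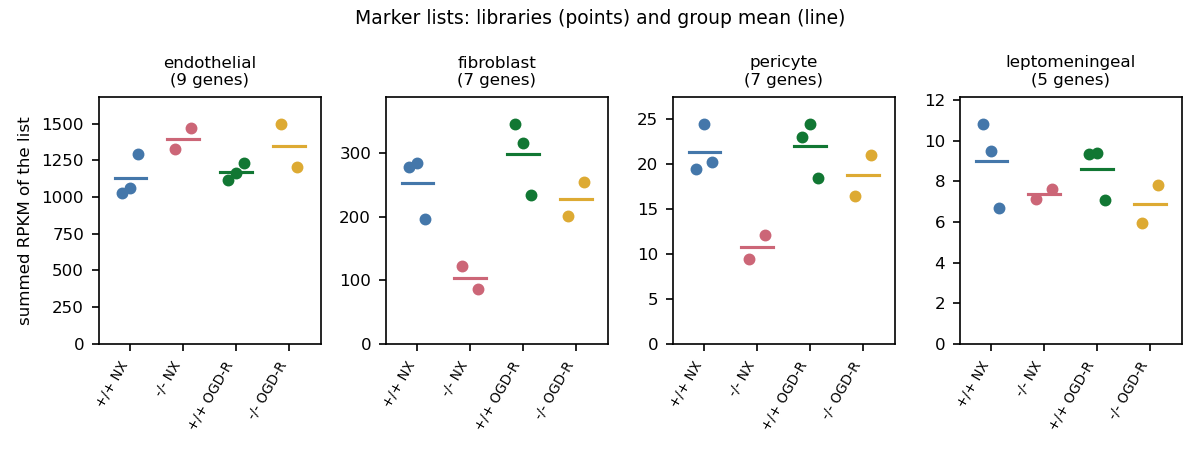
Summed RPKM of 4 marker lists (endothelial, fibroblast, pericyte, and leptomeningeal without the genes of the set) in the 10 libraries, with axes that start at 0; points are libraries and lines are group means. Fibroblast and pericyte sums of both *Cort*-/- NX/NG libraries (86.0 to 123 and 9.45 to 12.1 RPKM) lie below all other libraries, while endothelial sums of the *Cort*-/- NX/NG libraries (1326 to 1467 RPKM) lie above those of *Cort*+/+ NX/NG.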

How the data were processed

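RNA-seq of 10 libraries of primary mouse BECs was used. The authors processed the reads with reanalyzerGSE, without removing genes of low expression, and deposited 2 tables of RPKM, 1 per environment, each scaled on its own; edgeR is named in the submitters' processing notes, and aligner, genome build and versions are not given in the sources used here. The gene length in bases, a column of other kind, was also deposited. Another 10 columns that sort genes into categories and the authors' own comparisons (fold changes and p-values) were not used.

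Whole reads were recovered from the product of RPKM and length (at least 99.9958% of values in each library within 0.05 of a whole read). Comparisons used limma 3.58.1 in R 4.3.3 with a trend on log2(RPKM + 0.1), over genes above 0 in the libraries fitted, each fit holding just the 2 groups compared (all 4 for the interaction), with Benjamini-Hochberg adjustment over all genes; fold changes on that scale understate those of low genes. Replicates within a group are separate pools. Limma-voom on recovered reads, a pseudocount of 1, a filter at a mean of 1 RPKM, quantile normalization, a fit over all groups, a block for the replicate number, and left-out libraries were alternatives. For comparisons across tables, reads were joined and scaled by trimmed means of M values. The fit was tested on simulated data. The genes of the set and all lists were chosen with earlier results of these data known. Fold changes are given for genes of the set at an unadjusted p under 0.05, or called with limma-voom, plus examples at a larger p; further lists by their members of lowest p. Positions are from GENCODE vM21 (GRCm38) and promoters from RefSeq.

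The replicate numbers were checked for pairing: the correlations of deviations from group means between same-numbered libraries ran from -0.53 to 0.19. Within each *Cort*-/- group the deviations are mirror images of each other. The correlations therefore cannot settle whether same-numbered libraries share a pool.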

Additional observations from a re-analysis of the deposited data

How the results depend on the processing

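The alternatives were run on 65 fold changes, those at an unadjusted p under 0.05 (genes of the set in any comparison, other listed genes between genotypes) and 6 examples at a larger p. Of 739 recomputed values, 175 no longer had such a p and 9 gained one, among them that of *Cpxm1* in the interaction under 5 alternatives. Those of *Cpxm1*, *Prrx2*, *Foxd1* and *Cd248* under NX/NG kept one throughout. No other of the 17 genes of the set at that p under NX/NG did so, nor did any of the 10 after OGD-R. Some of the alternatives leave 1 *Cort*-/- library. Of the 65 fold changes, 10 kept both their sign and their side of that p throughout. Only *Vim*, *Zeb1* and *S100a4* under NX/NG, all near 0, turned sign, and only when 1 library was left out. The range was -0.0495 to 0.0940 for *Vim* and -0.0665 to 0.110 for *Zeb1*, which were below 0 without *Cort*-/- replicate 2 or *Cort*+/+ replicate 2, and -0.222 to 0.0150 for *S100a4*, which was above 0 without *Cort*-/- replicate 1. Counts below are genes called at an FDR of 0.05, then genes of the set at an unadjusted p under 0.05. The share of all genes at that p is not given for the alternatives. The counts of the set therefore do not show a change particular to it. The causes were not tested, except that leaving out a *Cort*-/- library leaves 1, whose spread is taken from the other group.

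For the genotype under NX/NG (0 and 17), a pseudocount of 1 called 20 genes, limma-voom 124 and all groups in one fit 4. Leaving out 1 library gave 0 to 683 calls (543 without *Cort*-/- replicate 1 and 683 without replicate 2, most of them higher) and 9 to 14 genes of the set. For the genotype after OGD-R (0 and 10), limma-voom called 5 and all groups in one fit 7, and leaving out 1 library gave 0 to 710 calls (710 and 626 without *Cort*-/- replicates 1 and 3) and 2 to 15 genes of the set.

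For the transition in *Cort*+/+ BECs (9 and 2), a pseudocount of 1 called 5, a filter at 1 RPKM 0, limma-voom 1, all groups in one fit 0, and leaving out 1 library, or the libraries low in ribosomal RNA, 0. Genes of the set numbered 6 with limma-voom, 1 with all groups in one fit, 5 without the libraries low in ribosomal RNA, and 2 to 5 without 1 library. For the transition in *Cort*-/- BECs (0 and 1), they numbered 7 with limma-voom, 3 with all groups in one fit, 3 without the library low in ribosomal RNA, and 2 to 6 without 1 library. For the interaction (3 and 0), a pseudocount of 1, a filter at 1 RPKM, limma-voom and leaving out the libraries low in ribosomal RNA each called 0, and leaving out 1 library gave 0 to 8 calls. Genes of the set numbered 2 with limma-voom, 1 without the libraries low in ribosomal RNA, and 0 to 6 without 1 library.

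The labels share replicate numbers, so the replicate number was also fitted as a block, although whether it pairs the libraries is not known. With the replicate block, 17 genes of the set under NX/NG, 3 after OGD-R, 3 in the *Cort*+/+ transition and 1 in the interaction had an unadjusted p under 0.05, and 0 genes were called at an FDR of 0.05 in each. For the *Cort*-/- transition no paired analysis was possible because the groups share 1 number and no degrees of freedom are left.

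At these read totals a gene such as *Dpt*, *Tcf21* or *Meox2* has at most 5 reads, and no difference in it was detectable.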
